A study of Mus musculus with 6 samples.

Results

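The genes described are 38 Hox genes of the Hoxa, Hoxb, Hoxc and Hoxd clusters in the mouse glioma line GL261. They were found by name, as Hox followed by a cluster letter and a paralog number, among 55498 named genes and 63643 gene-level features in all. Levels were read in total RNA of cells taken 4 h after addition of 1 uM sodium chloride (3 libraries, numbered 1, 2 and 3) or 1 uM sodium propionate (3 libraries, numbered 1, 4 and 5). Both salts carry sodium, and propionate is a short-chain fatty acid that gut bacteria release. That dose lies far below the millimolar range in which propionate is usually given to cultures, and its unit could not be checked. Nothing in the labels says whether the 3 libraries of a salt are separate cultures. The p-values therefore measure only the spread between libraries, which may be technical. All 6 libraries came from 1 cell line, with no untreated group.

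Hox genes encode homeodomain transcription factors that give cells their position along the head to tail axis and along the limbs. Within a cluster, genes with low paralog numbers are used towards the head and those with high numbers towards the tail, and the forebrain and midbrain normally use none. Polycomb proteins keep the clusters shut, Trithorax and MLL proteins keep them open, retinoic acid and Cdx factors help to open them, and TALE homeodomain proteins bind DNA together with Hox proteins. Hox genes, those of the Hoxa cluster above all, are known to be switched on in some gliomas.

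The opening picture is uneven use of the 4 clusters. Levels are scaled TPM, a measure of transcript abundance corrected for length, summed over the transcript models that carry a gene's name and scaled between libraries. A gene was called expressed at 1 TPM or more in each of the 6 libraries, silent under 0.1 TPM in each, and intermediate otherwise. By this rule 4 genes were expressed (Hoxa4, Hoxa10, Hoxd4 and Hoxd8), 14 were intermediate and 20 were silent. Of the silent genes, 19 were listed at 0 in all 6 libraries. Among the 21981 protein-coding genes, 25.5% were listed at 0 in all 6 libraries and 45.9% met the rule for expressed, against 19 and 4 of the 38 Hox genes.

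Sequences at the sharpest borders are shown first, since each pairs an expressed Hox gene with a silent neighbour. They are RefSeq promoter windows of build GRCm38.p6, from 250 bases before to 50 bases after a start site, written 5′ to 3′ with CpG dinucleotides in capitals. Hoxd8 (chr2:74704365-74704664, plus strand) is expressed and Hoxd9 (chr2:74697513-74697812, plus strand) is listed at 0. Hoxa10 has a far start (chr6:52240805-52241104, minus strand) and a near start (chr6:52234890-52235189, minus strand), both in use, and Hoxa11 (chr6:52245761-52246060, minus strand) is listed at 0.
Hoxd8: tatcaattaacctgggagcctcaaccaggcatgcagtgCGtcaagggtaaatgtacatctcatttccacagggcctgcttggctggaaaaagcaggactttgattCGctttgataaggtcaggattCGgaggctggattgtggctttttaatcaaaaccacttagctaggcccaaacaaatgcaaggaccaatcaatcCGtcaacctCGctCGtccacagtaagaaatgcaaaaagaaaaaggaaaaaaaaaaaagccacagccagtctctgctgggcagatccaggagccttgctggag
Hoxd9: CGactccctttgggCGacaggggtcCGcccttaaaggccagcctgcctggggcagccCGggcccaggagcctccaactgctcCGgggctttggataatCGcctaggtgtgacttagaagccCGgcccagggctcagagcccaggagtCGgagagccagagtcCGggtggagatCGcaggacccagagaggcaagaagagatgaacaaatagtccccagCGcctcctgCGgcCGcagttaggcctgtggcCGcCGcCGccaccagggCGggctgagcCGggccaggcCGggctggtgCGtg
Hoxa10 far start: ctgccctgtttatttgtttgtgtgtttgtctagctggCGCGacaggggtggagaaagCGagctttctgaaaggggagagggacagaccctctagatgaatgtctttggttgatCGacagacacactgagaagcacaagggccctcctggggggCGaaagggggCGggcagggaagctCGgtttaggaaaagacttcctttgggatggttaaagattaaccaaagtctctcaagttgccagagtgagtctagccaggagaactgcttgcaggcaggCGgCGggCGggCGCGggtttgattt
Hoxa10 near start: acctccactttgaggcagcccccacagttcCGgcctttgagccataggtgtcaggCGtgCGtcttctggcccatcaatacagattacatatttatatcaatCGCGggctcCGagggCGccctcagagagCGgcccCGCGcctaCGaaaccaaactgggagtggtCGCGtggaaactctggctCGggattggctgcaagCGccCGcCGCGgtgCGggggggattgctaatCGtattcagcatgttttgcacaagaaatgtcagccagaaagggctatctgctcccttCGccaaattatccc
Hoxa11: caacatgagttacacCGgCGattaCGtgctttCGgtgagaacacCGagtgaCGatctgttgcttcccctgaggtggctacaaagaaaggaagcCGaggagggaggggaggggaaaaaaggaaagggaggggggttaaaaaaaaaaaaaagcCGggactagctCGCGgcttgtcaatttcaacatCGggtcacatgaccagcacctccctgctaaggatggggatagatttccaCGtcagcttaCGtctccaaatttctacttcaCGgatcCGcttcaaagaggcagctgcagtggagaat

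The window of Hoxd8 held 6 CpG dinucleotides and that of silent Hoxd9 held 20. The far and near windows of Hoxa10 held 12 and 21, and that of silent Hoxa11 held 15. So the silent neighbour had more CpG than the Hoxd8 window but a count between those of the Hoxa10 starts. That Hoxd8 window covers only the start at 74704615, whose model had a mean of 10.1 of the gene's 31.8 TPM. The Hoxd8 models from 74704905 (mean 14.4 TPM) and 74705152 (mean 7.34 TPM) begin outside it. RefSeq windows were matched for 22 of the 38 genes, 24 windows in all because Hoxa10 and Hoxd11 have a pair each. The median count was 9 in 4 windows of expressed genes (range 4 to 21), 20 in 9 windows of intermediate genes (4 to 45) and 15 in 11 windows of silent genes (4 to 37). The median of all 32841 windows was 7, and the ranges of the 3 Hox classes overlapped. The 4 expressed windows came from 3 genes, and Hoxa4 had no window. Hoxa3 (20 CpG) and Hoxa5 (29 CpG) are intermediate by name. Both were expressed once unnamed models were joined to the gene whose exons they share most, so the order of these medians depends on the summing. The joined models begin at 52184041 for Hoxa3 and at 52212206 for Hoxa5, outside the windows of these genes. The model that carries the Hoxa5 name begins at 52206287, also outside. The class of a gene therefore need not be that of the start in its window.

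Motifs were searched on both strands of the same windows, and copies of different motifs may overlap. The CCAAT box occurred in 15 of the 24 Hox windows and in 37.4% of all windows, and the Sp factor motif GGGCGG in 10 of 24 and in 35.7%. The TATA box TATAAA occurred in 4 of 24 Hox windows (13.6% of all windows) and the homeodomain core TAATTA in 2 (5.29%). The Hox and Pbx composite motif TGATNNAT occurred in 4 (8.85%). In the printed windows, Hoxd8 held 1 CCAAT copy, Hoxd9 held 2 GGGCGG copies, the far Hoxa10 window held 2 GGGCGG copies, and the near one held 1 CCAAT and 1 TATAAA copy. None of the 5 motifs was found in the Hoxa11 window. A match is a description of the letters and not a bound site.

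**Figure D1:**
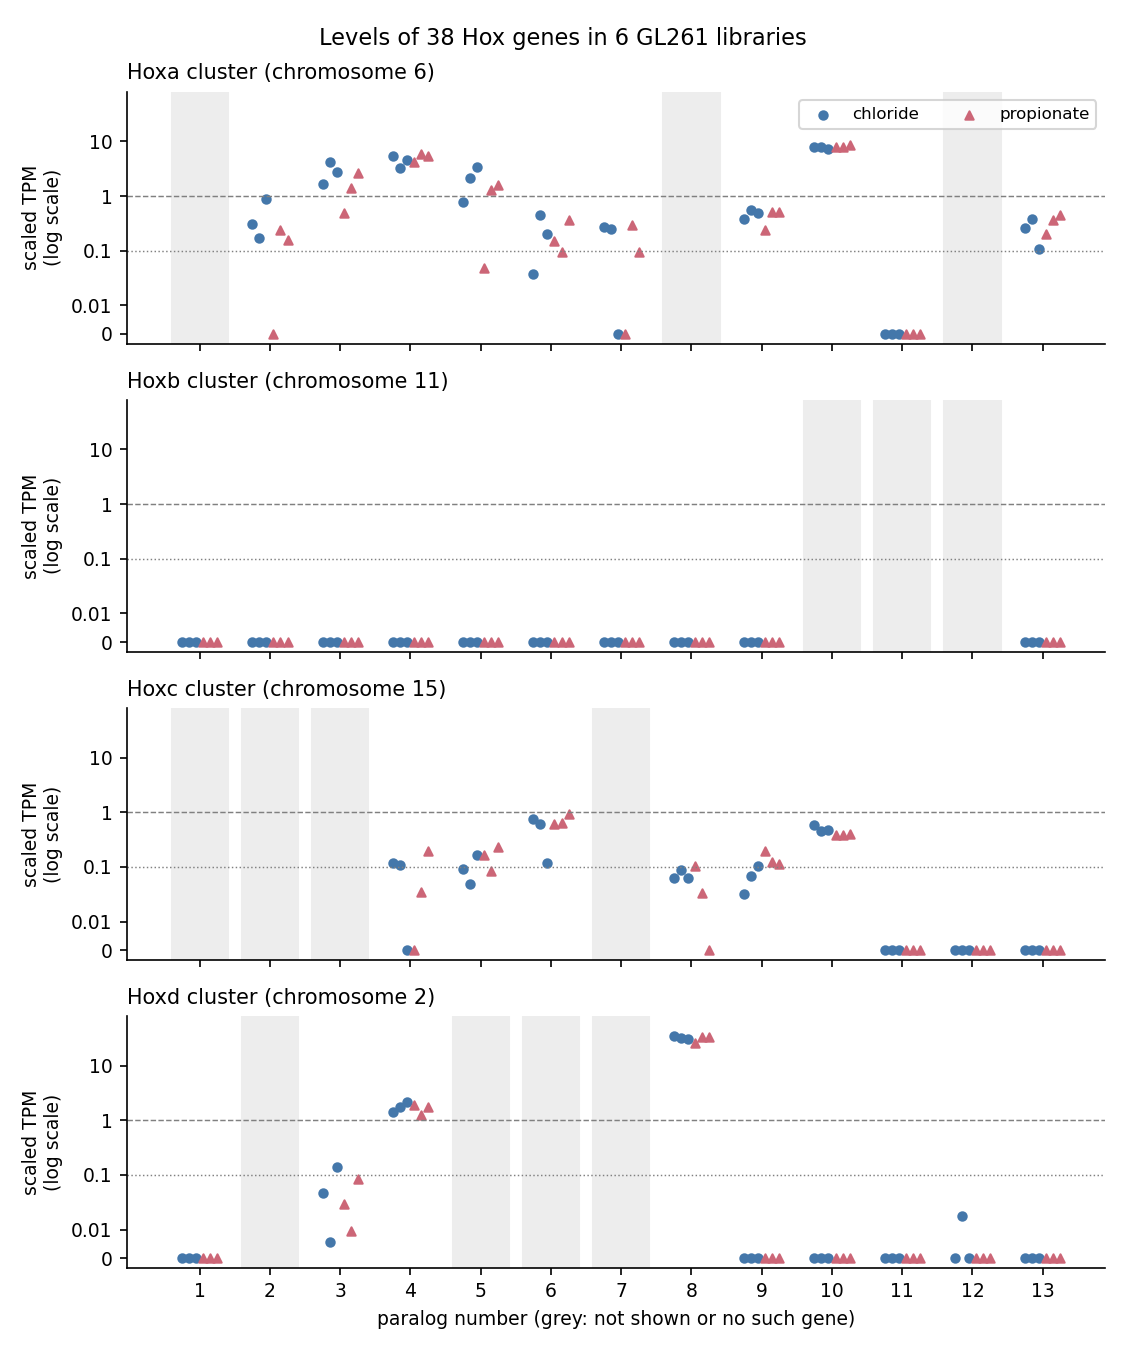
Scaled TPM (log scale, listed 0 drawn at the bottom) of the 38 Hox genes by paralog number, 1 panel per cluster, 1 point per library, chloride as circles and propionate as triangles. The dashed line is 1 TPM and the dotted line is 0.1 TPM. Hoxd8 stands highest, all 10 Hoxb genes lie at 0, and values drop to 0 past Hoxa10, Hoxc10 and Hoxd8, apart from Hoxa13 and a trace of Hoxd12.

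The Hoxa cluster (chromosome 6, bases 52162417 to 52260880 of mm10 from Hoxa2 to Hoxa13) gave some level for all but 1 of the 10 genes described, several of them low. Of these 10 genes, 2 were expressed, 7 were intermediate and 1 was silent, and their summed level ran from 13.1 to 19.96 TPM across libraries. Those sums cover only models that carry a gene name, and with unnamed models joined to the gene whose exons they share most, a setting chosen after the data were seen, they ran from 25.7 to 32.4 TPM. Hoxa2, a hindbrain and branchial arch regulator, had a mean of 0.297 TPM. Further on, Hoxa10, known from the uterus and hindlimb, stood at a mean of 7.92 TPM. Hoxa9, at 0.446 TPM, lies 107 bases from Hoxa10 by the annotated gene ends. The Hoxa9 model that reaches this end had a mean of only 0.0130 TPM. Most of the Hoxa9 level (mean 0.391 TPM) came from a model that begins at 52227370, while the near start of Hoxa10 is at 52234939. Hoxa11, a forelimb and kidney regulator 1251 bases beyond Hoxa10, was listed at 0 in every library, while Hoxa13, a gene of the digits and hindgut at the end of the cluster, had 0.109 to 0.452 TPM.

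The Hoxb cluster (chromosome 11, bases 96194316 to 96368256) gave no level for any of its 10 genes. From Hoxb9 to Hoxb1, over 96800 bases, 26 transcript models of 13 named genes lay in the files and none had any coverage in any library. When the window was widened to Hoxb13, 1 of 35 models was covered, that of the pseudogene Gm11539. The antisense RNAs Hoxb3os and Hoxb5os and the microRNA gene Mir10a, which lie in the same cluster, were also at 0.

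The Hoxc cluster (chromosome 15, bases 102921103 to 103036852) was read at low levels at its low-numbered end. Its 6 genes from Hoxc4 to Hoxc10 were intermediate, with a summed level of 0.929 to 1.87 TPM. Hoxc11, Hoxc12 and Hoxc13, the last of them a hair follicle regulator, were listed at 0, and none of the 8 models in their window of 36606 bases was covered. The step lay in the 9087 bases between Hoxc10, at a mean of 0.445 TPM, and Hoxc11.

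The Hoxd cluster (chromosome 2, bases 74668310 to 74765142) held the highest Hox level and the largest step. Hoxd8, expressed in the embryonic trunk, had a mean of 31.8 TPM, and Hoxd9, 4406 bases away, was listed at 0. From Hoxd13 to Hoxd9, genes known for limb and digit patterning, 10 models lay in 31899 bases and 1 was covered, Hoxd12 at 0.0175 TPM in chloride 2 alone, from an estimated 2 reads. Hoxd4, a hindbrain gene, was expressed, Hoxd3 had 0.00597 to 0.138 TPM by name, and Hoxd1 was listed at 0. Gm28230, a model of another name in the same locus, runs from 74726728 to 74748442, where Hoxd3 also ends. It had 0.182 to 0.566 TPM, which is not counted for Hoxd3, by name or with unnamed models joined. The summed level of the cluster was 28.4 to 36.4 TPM, and Hoxd8 alone made up 57.6% to 63.4% of the TPM of the 38 genes by name, and 45.0% to 50.7% with unnamed models joined.

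A listed 0 is a statement of the deposited estimate. The estimator divides reads between overlapping models. Even Gapdh, a glycolysis gene used by every cell, was listed at only 0.296 to 30.0 TPM under its name. With the unnamed models of its locus joined it had 19.98 to 53.1 TPM, and the cause of these values was not tested. In the windows from Hoxb9 to Hoxb1 and from Hoxc13 to Hoxc11, unlike at Gapdh, no model of any name had coverage. Whether reads there failed to align, the DNA is missing or the genes are off cannot be told apart in these files.

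For propionate against chloride, no Hox gene passed the test. Of the 38 genes, 6 had a mean before scaling of 1 TPM or more, which was needed to be tested, and 32 had less. Differences are of log2(scaled TPM + 1), which understates the change of low genes, by limma with Benjamini-Hochberg adjustment over 19904 features. None of the 6 passed an adjusted p of 0.05, against 3 of all features tested, 2 higher and 1 lower (0.0151%). None of the 6 had an unadjusted limma p under 0.05 (4.43% of all tested), and none had groups that did not overlap (11.2% of all tested). By sign, 2 of the 6 were higher and 4 lower in propionate, with a median log2 difference of -0.081 beside 0.0056 for all features tested.

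Hoxd8 had 34.9, 32.1 and 30.8 TPM in chloride 1, 2 and 3 and 26.5, 33.1 and 33.5 TPM in propionate 1, 4 and 5. Propionate 1 was lowest and the groups overlapped. The means were 32.6 ± 2.09 and 31.0 ± 3.93 TPM (SD, n = 3 each), a log2 difference of -0.075 (SE 0.11, 95% interval -0.36 to 0.21, limma adjusted p = 0.935). These levels rested on 2838 to 4419 estimated reads per library, the largest number of any Hox gene.

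Hoxa10 had 8.05, 7.98 and 7.12 TPM in chloride and 7.86, 7.86 and 8.65 TPM in propionate. The libraries lay close together and the groups overlapped. The log2 difference was 0.066 (SE 0.099, 95% interval -0.18 to 0.31, limma adjusted p = 0.935), from 578 to 824 estimated reads, and it was 0.014 without chloride 3.

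Hoxa4, a gene of the hindbrain and neck region, had 5.32, 3.28 and 4.50 TPM in chloride and 4.13, 5.86 and 5.47 TPM in propionate. Chloride 2 was lowest and the groups overlapped. The log2 difference was 0.21 (SE 0.20, 95% interval -0.30 to 0.71, limma adjusted p = 0.924). Leaving out chloride 2 gave 0.051 and leaving out propionate 1 gave 0.33.

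Hoxd4 had 1.45, 1.76 and 2.21 TPM in chloride and 1.93, 1.23 and 1.75 TPM in propionate. Both groups covered nearly the same range. The log2 difference was -0.088 (SE 0.19, 95% interval -0.55 to 0.38, limma adjusted p = 0.952), and its sign turned without chloride 3 (0.012) or without propionate 4 (0.029).

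Hoxa3, a regulator of pharyngeal organs, had 1.64, 4.25 and 2.70 TPM in chloride and 0.498, 1.40 and 2.66 TPM in propionate. Hoxa5, a regulator of lung and neck structures, had 0.773, 2.103 and 3.41 TPM in chloride and 0.0488, 1.28 and 1.603 TPM in propionate. Both were lowest in propionate 1, varied widely within each group and overlapped between groups. The log2 differences were -0.65 for Hoxa3 (SE 0.42, 95% interval -1.69 to 0.38) and -0.65 for Hoxa5 (SE 0.49, 95% interval -1.88 to 0.57), each with a limma adjusted p of 0.924. With 1 library left out, Hoxa3 ran from -0.97 without propionate 5 to -0.33 without propionate 1, and Hoxa5 from -1.001 without chloride 1 to -0.25 without propionate 1. For Hoxa5 the difference was 0.052 in the 4 better-covered libraries, those other than chloride 3 and propionate 1. Hoxa5, with a mean of 1.54 TPM, lay just inside the limit for testing and Hoxc6, at 0.604 TPM, just outside it.

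**Figure D2:**
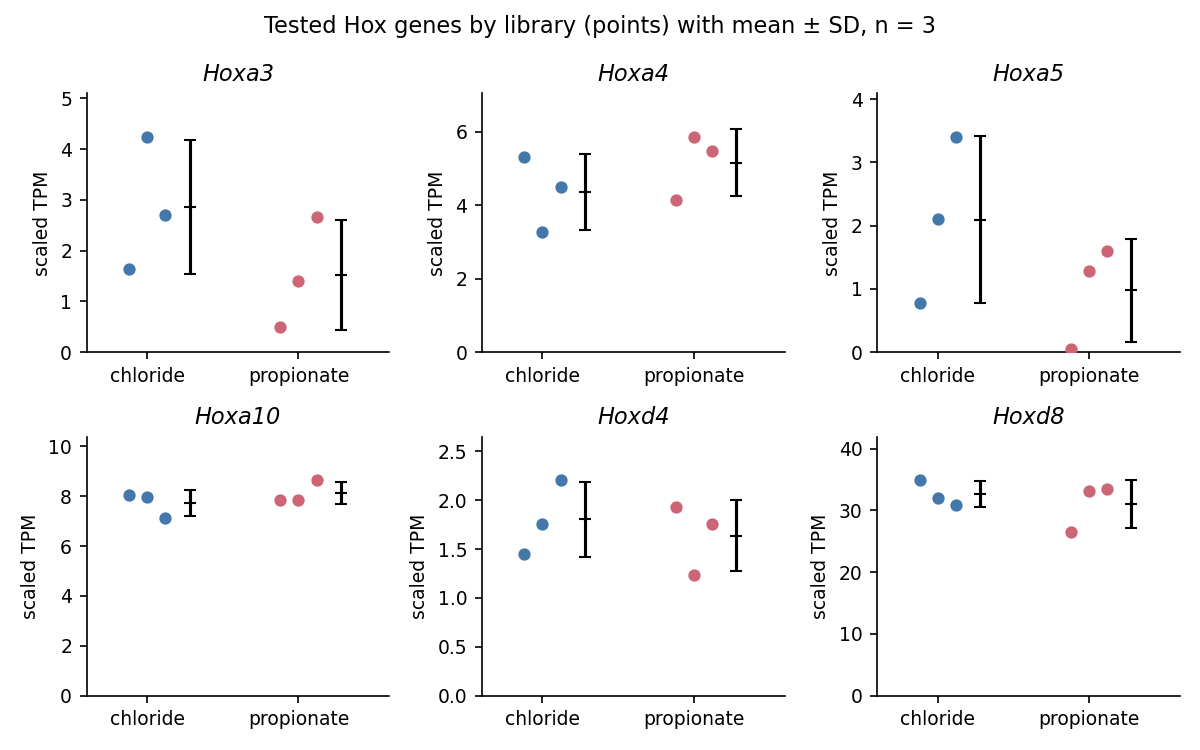
Scaled TPM of the 6 tested Hox genes, 1 point per library (axes from 0, a different range per gene), with the mean and SD of the 3 libraries of each salt. In each panel the points of the groups overlap, and relative to their means Hoxa3 and Hoxa5 spread widest within a salt.

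In order of level by gene name, Hoxd8 stood apart, since its lowest library (26.5 TPM) lay above the highest library of Hoxa10 (8.65 TPM). Hoxa10, with a mean of 7.92 TPM, likewise lay above Hoxa4 in every library, where the mean was 4.76 TPM. Below that, neighbours overlapped in range, in the order Hoxa4, Hoxa3 (2.19 TPM), Hoxd4 (1.72 TPM) and Hoxa5 (1.54 TPM). With unnamed models joined the order differed, since Hoxa3 (8.34 to 13.7 TPM) then lay above Hoxa10 in each of the 6 libraries and Hoxa5 (4.30 to 5.26 TPM) within the range of Hoxa4 (3.30 to 5.90 TPM). Among all 19904 features tested, whose median was 8.94 TPM, Hoxd8 stood at the 79.4th percentile and Hoxa10 at the 47.2nd.

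Transcript models showed where these sums came from. In the locus of Hoxa2 and Hoxa3, 2 assembled models with no gene name took 61.2% to 91.2% of the TPM. The longer of them (7720 bases of exon, 52176171 to 52184041) shares 1201 exon bases with Hoxa3, and the other (5779 bases, 52165318 to 52184041) shares 2413. The whole locus had 10.2, 11.4 and 14.5 TPM in chloride and 8.84, 8.53 and 10.4 TPM in propionate. Chloride 2 and 3 were highest, and the groups overlapped because propionate 5 lay above chloride 1. The log2 difference of the locus was -0.34 (SE 0.13, 95% interval -0.65 to -0.027, limma adjusted p = 0.923).

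In the locus of Hoxa5 and Hoxa6, 2 unnamed models that hold nearly all of Hoxa5 and reach on past Hoxa6 took 33.4% to 95.6%. The whole locus had 4.31, 4.71 and 5.42 TPM in chloride and 4.52, 4.44 and 5.23 TPM in propionate. These sums were close together although Hoxa5 by name ran from 0.0488 to 3.41 TPM, and propionate minus chloride was -0.021 on the log2 scale (SE 0.11, limma adjusted p = 0.988). With unnamed models joined to the gene with which they share most exon bases, a setting chosen after the data were seen, Hoxa5 had 4.62 ± 0.555 TPM in chloride and 4.56 ± 0.300 TPM in propionate (SD, n = 3 each).

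In the locus of Hoxd3 and Hoxd4, 1 unnamed model took 41.8% to 53.5% of 4.16, 4.603 and 4.82 TPM in chloride and of 4.10, 3.47 and 3.82 TPM in propionate. By these sums, which include Gm28230, each propionate library lay below each chloride library. The log2 difference was -0.21 (SE 0.11, 95% interval -0.46 to 0.041, limma adjusted p = 0.923). Joined in the same way, Hoxa3 had 11.7 ± 1.91 TPM in chloride and 9.06 ± 1.03 TPM in propionate (log2 difference -0.33, limma adjusted p = 0.914), and Hoxd4 had 4.10 ± 0.423 and 3.38 ± 0.298 TPM. By joined sums 6 Hox genes were expressed, with Hoxa3 and Hoxa5 added, and the 20 silent genes were the same.

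Hoxd8 was read as 3 models with different start sites and 1 shared end. The model that begins at 74704615, the RefSeq start of the printed window, had 14.9, 13.2 and 18.1 TPM in chloride and 0, 0.155 and 14.2 TPM in propionate. The model that begins at 74705152 had 1.77, 1.59 and 1.25 TPM in chloride and 18.8, 18.9 and 1.66 TPM in propionate. Propionate 5 looked like the chloride libraries in both, and propionate 1 and 4 did not, while the sum of the 3 models was similar in all. Single models were not tested.

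Hoxa10 was split more evenly between libraries. The model from the far start (52240854) had 4.42 to 5.75 TPM and the one from the near start (52234939) had 1.95 to 3.26 TPM. Both begin at the RefSeq start of a printed window.

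**Figure D3:**
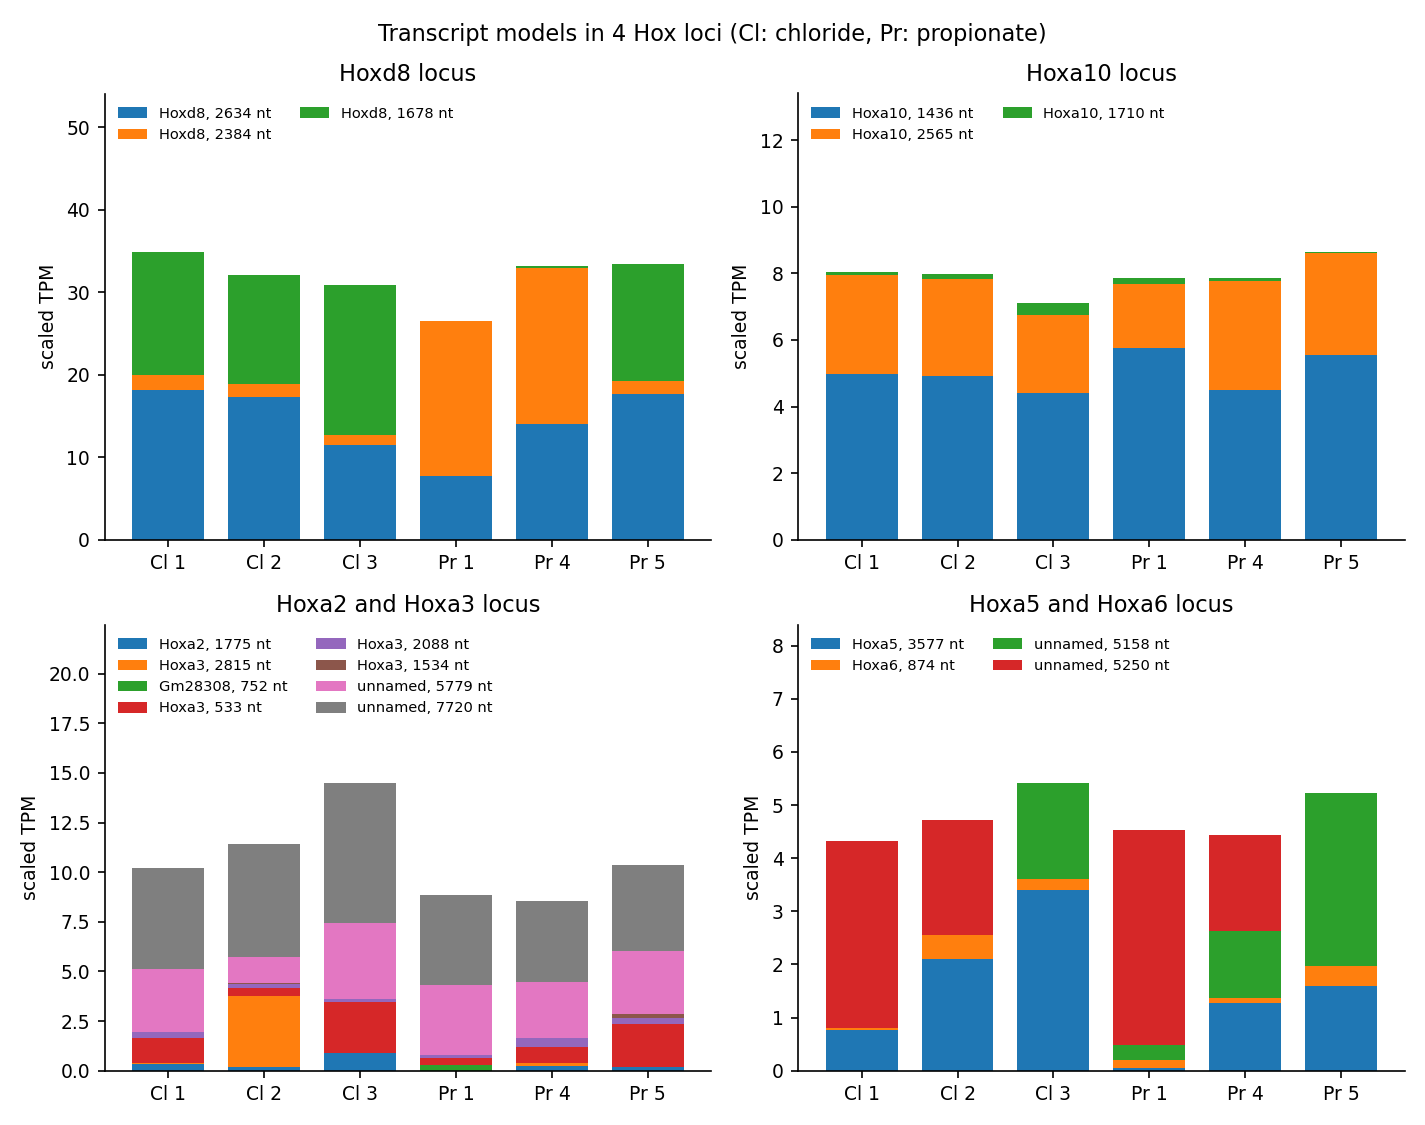
Scaled TPM of each transcript model (stacked bars from 0, 1 bar per library, models named by gene and exon length) in the loci of Hoxd8, Hoxa10, Hoxa2 with Hoxa3, and Hoxa5 with Hoxa6. Parts shift between libraries, as for Hoxd8 in propionate 1 and 4, while the whole bar changes less at Hoxd8, Hoxa10 and Hoxa5 with Hoxa6, and runs from 8.53 to 14.5 TPM at Hoxa2 with Hoxa3.

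**Figure D4:**
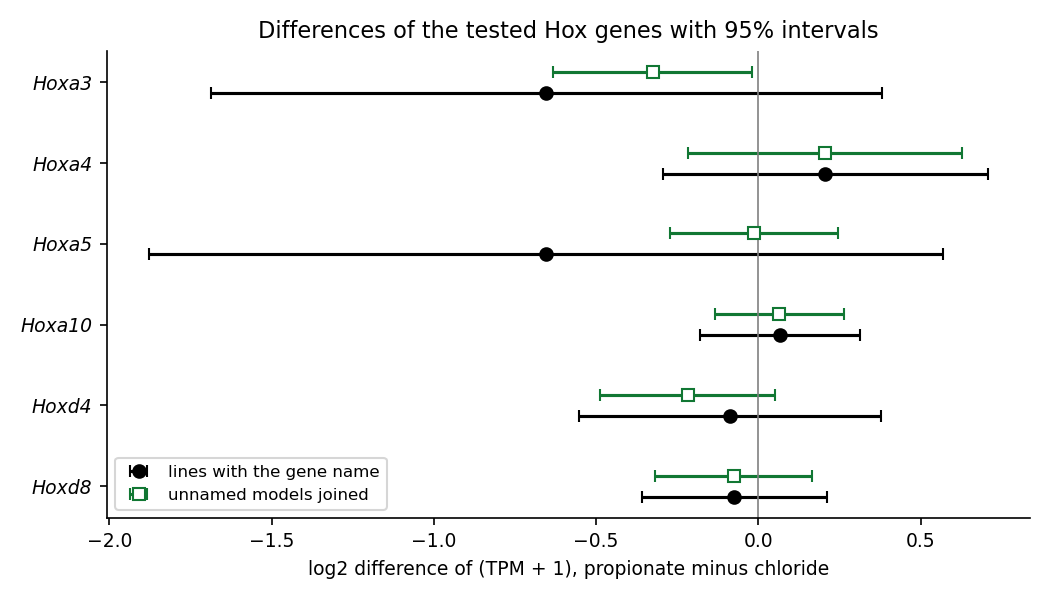
Log2 difference of (TPM + 1), propionate minus chloride, with 95% limma intervals for the 6 tested Hox genes, from lines that carry the gene name (circles) and with unnamed models joined (squares). Intervals of Hoxa3 and Hoxa5 are narrower with joined models, and only the joined interval of Hoxa3 lies below 0, with an adjusted p of 0.914.

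Apart from Hoxa3 and Hoxa5, the intermediate genes were not tested and gave at most 82.5 estimated reads in a library. Hoxc6, a gene of the thoracic region, had 0.747, 0.598 and 0.116 TPM in chloride and 0.603, 0.633 and 0.925 TPM in propionate. Hoxa9, a gene known from leukaemia, had 0.377, 0.553 and 0.492 TPM in chloride and 0.236, 0.49998 and 0.515 TPM in propionate. Both overlapped between groups. Hoxc10, a gene of the lumbar region, had 0.588, 0.444 and 0.479 TPM in chloride and 0.376, 0.380 and 0.404 TPM in propionate.

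Hoxc10, on 31.4 to 51.7 estimated reads, lay lower in each propionate library than in each chloride library. Hoxc9 had 0.0319, 0.0686 and 0.104 TPM in chloride and 0.195, 0.123 and 0.115 TPM in propionate, from 3.50 to 20.2 estimated reads, so it lay higher in each propionate library. These were the 2 of 13 untested genes with any reads whose groups did not overlap, beside 11.2% of all features tested. They were singled out after their values were seen and have no test.

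Of the remaining intermediate genes, Hoxa2, Hoxa6, Hoxa7 and Hoxa13 had means of 0.153 to 0.297 TPM. Hoxc4, Hoxc5, Hoxc8 and Hoxd3 had means of 0.0526 to 0.131 TPM. Hoxa7 and Hoxc4 were at 0 in chloride 3 and propionate 1, Hoxa2 in propionate 1 and Hoxc8 in propionate 5.

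Among the noncoding RNAs of the clusters, 23 names were listed, 17 were in the files, 8 were at 0 throughout and 3 were tested. Hotairm1, a Hoxa cluster RNA known from myeloid cells, had 7.58, 7.996 and 7.76 TPM in chloride and 11.4, 8.75 and 8.42 TPM in propionate. Each propionate library lay above each chloride library, with propionate 1 farthest. Hotairm1 had a log2 difference of 0.25 (SE 0.13, limma adjusted p = 0.924). Hoxd3os1 had a mean of 2.90 TPM and a log2 difference of -0.018.

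Hoxaas3 had 0.270, 2.76 and 4.37 TPM in chloride and 0.309, 0.186 and 0.170 TPM in propionate. Chloride 2 and 3 were high and the other 4 libraries low (log2 difference -1.27, SE 0.55, limma adjusted p = 0.924). With unnamed models joined it had 3.77, 2.93 and 4.63 TPM in chloride and 1.93, 4.03 and 2.84 TPM in propionate, and the log2 difference was -0.30. Hottip and Hotair, RNAs of the far ends of Hoxa and Hoxc, were listed at 0. The kit marks strand, but the sources used here do not say whether the counting used it, so antisense levels are uncertain.

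Most listed genes that work with or on Hox clusters had some level, but 10 of the 20 retinoid and Cdx genes were at 0 throughout. None of those tested passed in either direction. All counts here are of limma adjusted p under 0.05, with 0.0151% of all features called. Limma-voom on estimated reads also called 0 of the listed genes. At an unadjusted limma p under 0.05 there were 1 TALE gene (Meis1), 1 Polycomb gene (Phc3) and 0 in the other lists of regulators and position, beside 4.43% of all features tested. By sign, 10185 of all 19904 features tested were higher and 9719 lower. Groups did not overlap for 2 TALE, 4 Polycomb, 2 Trithorax and MLL and 1 head gene and for 1 noncoding RNA among those tested. In the retinoid, CTCF and hindbrain lists there were 0 such genes, beside 11.2% of all features tested. Of 11 TALE genes, 9 were tested, of which 5 were higher and 4 lower by sign, and the median log2 difference was 0.010. Tgif1, a repressor, and Pbx3, a Hox partner, had the highest means at 43.7 and 13.9 TPM. Meis1, a Hox partner known from leukaemia, had 1.16, 1.76 and 1.63 TPM in chloride and 0.849, 0.941 and 0.708 TPM in propionate. Each propionate library was lower (log2 difference -0.45, SE 0.17, limma adjusted p = 0.924). Meis2 had 10.7, 10.1 and 10.8 TPM in chloride and 12.3, 11.3 and 11.0 TPM in propionate, each higher (log2 difference 0.13, adjusted p = 0.924).

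Of 35 Polycomb genes, 34 were tested, 14 of them higher and 20 lower by sign (median -0.024). The histone binding subunits Rbbp7 and Rbbp4 were highest, at 407 and 128 TPM. Phc3, a subunit of Polycomb complex PRC1, had 8.59, 1.84 and 8.39 TPM in chloride and 1.36, 1.10 and 0.903 TPM in propionate. Chloride 1 and 3 were far above the rest, and chloride 2 lay near the propionate libraries (log2 difference -1.59, SE 0.51, limma adjusted p = 0.924). Pcgf1, of a variant PRC1, had a log2 difference of -0.23 (SE 0.10, limma adjusted p = 0.924).

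Of 24 Trithorax and MLL genes, 23 were tested, 14 of them higher and 9 lower by sign (median 0.016). The MLL core subunits Ash2l and Dpy30 were highest, at 120 and 72.0 TPM. Kansl1 and Hcfc1 had the smallest p, with log2 differences of 0.52 (SE 0.21) and 0.53 (SE 0.23), each at a limma adjusted p of 0.924. Of 11 genes of CTCF and cohesin, which shape the loops of the clusters, all were tested, 2 of them higher and 9 lower by sign (median -0.020). Smc1a and Rad21 were highest, at 78.4 and 52.1 TPM, and Smc3 and Nipbl had log2 differences of -0.47 (SE 0.32) and -0.56 (SE 0.41).

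Retinoid and Cdx genes varied in level. Of 20, 9 were tested, 8 of them higher and 1 lower by sign (median 0.083), and 10 were at 0 in all libraries, among them Cdx1, Cdx2, Cdx4 and Rarb. Crabp2, a carrier of retinoic acid to its receptors, had a mean of 202 TPM, and Aldh1a3, which makes retinoic acid, had 62.4 TPM. Crabp2 had a log2 difference of 0.19 (SE 0.11) and Cyp26b1, which breaks retinoic acid down, one of 0.75 (SE 0.45), each with a limma adjusted p of 0.924.

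Other genes of position gave a mixed picture. Of 27 head, forebrain and midbrain genes, 14 were at 0 throughout, among them Otx2, Emx2, En1 and En2, and 5 were tested. Dlx1, a forebrain interneuron gene, had a mean of 11.7 TPM. Pax6, of the forebrain, eye and spinal cord, had 7.69, 6.95 and 8.58 TPM in chloride and 4.59, 6.54 and 6.32 TPM in propionate. Each propionate library was lower (log2 difference -0.37, SE 0.16, limma adjusted p = 0.924), and Zic2 had a log2 difference of -0.14.

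Of 22 hindbrain and posterior genes, 11 were at 0 throughout, with Evx1 and Evx2, the neighbours of the Hoxa and Hoxd clusters, among them, and 5 were tested. Tbx4, a hindlimb and lung gene, had a mean of 7.54 TPM and a log2 difference of 0.089. Irx5 and Irx2, of the hindbrain and heart among others, had means of 5.74 and 5.59 TPM, with log2 differences of -0.041 and -0.092. By sign, 2 of the 5 tested head genes and 2 of the 5 posterior genes were higher, with medians of -0.072 and -0.022. Egr2, a hindbrain gene, had a mean of 1.73 TPM.

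**Figure D5:**
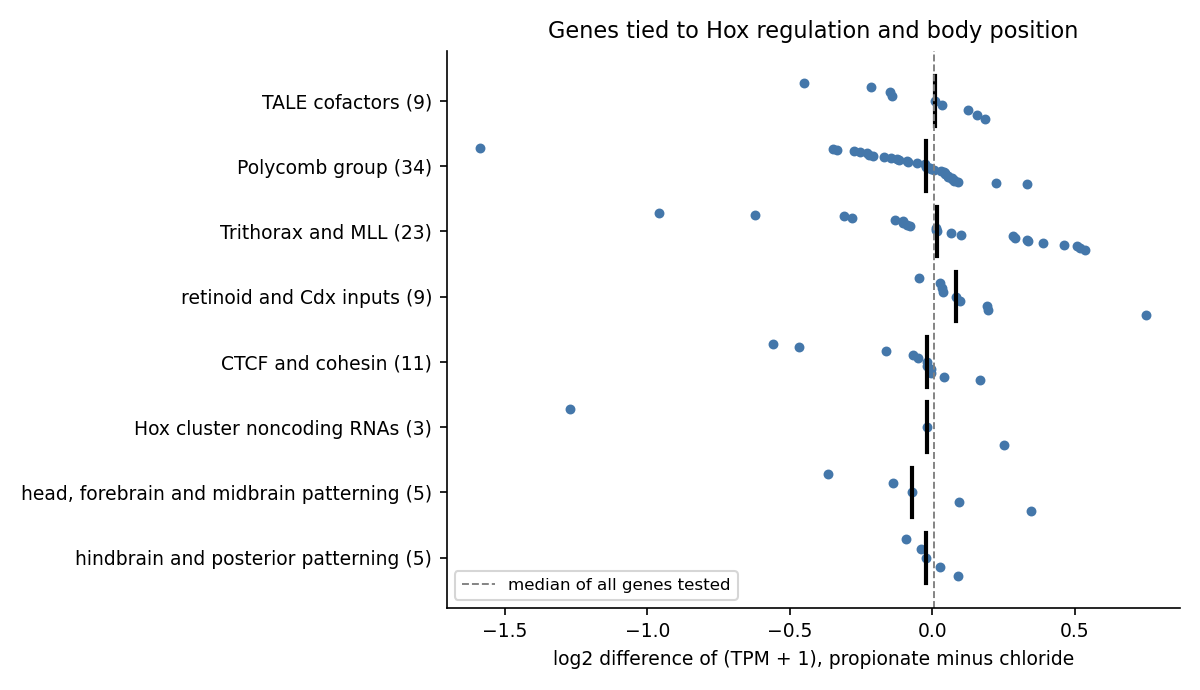
Log2 difference of (TPM + 1), propionate minus chloride, for each tested gene of 8 lists tied to Hox genes and position (points, number tested in brackets), with the median of each list (black bar) and of all features tested (dashed line). List medians run from -0.072 to 0.083, and no point passed an adjusted p of 0.05.

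The libraries held 9.15 to 11.3 Gb of counted bases. Chloride 3 and propionate 1 had 71192 to 71452 covered models, against 81178 to 82370 in the other 4 libraries, and each salt has 1 of that pair. Gene levels correlated at 0.900 to 0.941 between libraries. Of 10 glioma and astroglial markers, 7 were tested, with Vim at 812, Nes at 271 and S100b at 99.7 TPM. Gfap had only 0.927 TPM and Sox9 0.00178 TPM. Of the oligodendrocyte markers Mbp stood at 212 TPM, Mog at 1.14 TPM and Mag at 0.0683 TPM. Of the fibroblast and pericyte markers Col3a1 and Col1a1 stood at 190 and 87.8 TPM, with Dcn at 0.0187, Lum at 0.00254 and Rgs5 at 0.00314 TPM, so both list sums rested on few genes. Summed over the list, oligodendrocyte markers had 255 to 281 TPM in chloride and 264 to 314 TPM in propionate, and fibroblast and pericyte markers 262 to 296 and 254 to 291 TPM. Of 6 microglia and macrophage markers only Csf1r was tested (1.552 TPM), with Itgam at 0 throughout, and list sums were 1.495 to 1.68 TPM in chloride and 1.78 to 2.28 TPM in propionate. None of the endothelial, neuron and lymphoid markers was tested, with list sums up to 0.291 TPM and Kdr, Rbfox3, Snap25 and Cd3e at 0. Their part in the Hox levels was not tested, and in bulk RNA fewer cells of a type and less RNA per cell cannot be told apart.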

How the data were processed

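Total RNA of GL261 cells was made into stranded libraries (TruSeq Stranded Total RNA, Gold), per the labels. Per the submitters' processing notes, the tools were HISAT2, StringTie, fastp and bcl2fastq and the genome build was mm10. Per the file headers, the authors ran StringTie 2.1.1, and the deposited values are coverage, FPKM and TPM for each of 157296 transcript models, 142491 of them reference models, with no counts. Replicates were not pooled.

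TPM were summed over models with the same gene name and identifier, and unnamed models were kept as features of their own. Each library was scaled by its median ratio to the geometric mean across libraries (factors 0.972 to 1.10). Features with an unscaled mean of 1 TPM or more and a longest model of at least 200 nt were tested two-sided with limma 3.58.1 in R 4.3.3 (lmFit, eBayes with trend) on log2(TPM + 1), a pseudocount of 1, with Benjamini-Hochberg adjustment and a threshold of 0.05. The code of the test was run on simulated data with independent normal noise. Such noise lacks the jumps between libraries seen for genes such as Hoxa5, so the run cannot show how the test handles them. Reads were estimated as coverage times model length over the read length of 101 nt, which was read from the steps of coverage. Depth was 9.15 to 9.47 Gb in chloride and 9.33, 11.3 and 11.1 Gb in propionate 1, 4 and 5, so the deepest libraries were of propionate. Of the 19904 features tested, no more than 0.889% had exactly the same deposited value, with no tolerance, in any pair of libraries. Names were matched to GENCODE M21, and promoter windows came from RefSeq. Other steps used Python 3.11.15 with numpy 2.4.6, pandas 2.3.3 and, for plots, matplotlib 3.10.9.

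The members and lists were chosen with earlier results of these data known. Some genes that the lists or the rule would name are not reported here. Values per library are given for members whose mean is 1 TPM or more and the 3 highest below it. In each other list the 2 genes with the smallest p and the 2 with the highest mean are named, and other genes were named after their values were seen. Alternatives varied scaling, pseudocount, filters, summing, the test and the libraries used.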

Additional observations from a re-analysis of the deposited data

How the results depend on the processing

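Under 17 alternatives for the tests, 16 of them planned and 1 (unnamed models joined) chosen after the data were seen, the counts of Hox genes and of listed regulator and position genes past the threshold were 0 in each. Adjusted p of the 6 tested Hox genes ran from 0.837 to 1.00. Over all features, 3 passed, against 1 with a mean of at least 5 TPM, 1 with reference transcripts alone, 1 with unnamed models joined, 0 with limma-voom on estimated reads, and 0 to 8 when 1 library was left out. Signs turned for Hoxa5 (0.052) in the 4 better-covered libraries, Hoxa10 (-0.022) with TPM as deposited, and Hoxd8 with limma-voom (0.037). With 1 library left out, Hoxd4 ran from -0.18 to 0.029, above 0 without chloride 3 or propionate 4, and Hoxd8 from -0.13 to 0.032, above 0 without propionate 1. The cause was not tested. The number of expressed Hox genes was 3 to 6 and of silent ones 20 to 28 over the cut-offs, sums and libraries tried. No paired analysis was possible because the groups share only 1 replicate number. With 3 libraries a group, the 95% interval of Hoxd8 reached from -0.36 to 0.21 and that of Hoxa5 from -1.88 to 0.57 on the log2 scale, or from -0.27 to 0.24 with unnamed models joined.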

Other observations

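Pax3, a gene of the dorsal neural tube and neural crest, had 0.687, 0.637 and 0.614 TPM in chloride and 1.15, 1.03 and 0.963 TPM in propionate. Each propionate library lay above each chloride library. Its mean of 0.847 TPM kept it from the test, and it was singled out after its values were seen.

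Sox2, a neural progenitor gene, had 10.7, 10.9 and 7.64 TPM in chloride and 9.48, 38.99 and 32.1 TPM in propionate. Propionate 4 and 5 were high and propionate 1 lay within the chloride range (log2 difference 1.18, SE 0.53, limma adjusted p = 0.924). It was also singled out after its values were seen.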
